A study of Homo sapiens with 12 samples.

Results

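Glycolysis and hypoxia-inducible genes were followed as a list of 39 named genes, put together with earlier results of these data known, among the 48162 gene IDs counted in the series. All 39 were found by their Ensembl ID, and all 39 had enough counts to be tested in every comparison. They fall into 9 enzymes of the upper steps of glycolysis, 8 enzymes of the lower steps and of lactate formation, 3 regulatory kinases, 3 subunits of hypoxia-inducible factor (HIF), 3 genes of HIF turnover and 13 hypoxia-inducible targets.

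The data are poly(A)-selected RNA-seq of IMR90, fibroblasts of normal human lung, with 4 groups of 3 libraries, all kept in 2% oxygen and high-glucose medium. RAS/shDOT1L cells carried pBABE-HRASG12V, an oncogenic HRAS, together with pLKO.1-shDOT1L, a single hairpin against DOT1L. RAS cells carried pBABE-HRASG12V, DOT1L OE cells carried MSCB-hDot1lwt, a human DOT1L, and control cells carried the empty pBABE-Control. The labels name no hairpin for the RAS and control libraries. Whether these carried a control hairpin is not known, so RAS/shDOT1L may differ from RAS also in the hairpin vector. Cells were selected for 4 days, with 3 µg/mL puromycin in RAS/shDOT1L, RAS and control and with 1 µg/mL blasticidin in DOT1L OE, so that DOT1L OE differed from its control also in vector and drug. The labels give RAS cells as senescent with the senescence-associated secretory phenotype, RAS/shDOT1L as senescent with less of it, and DOT1L OE as not senescent but secretory. The libraries may be technical replicates of 1 experiment, and p-values then measure only the spread between these libraries.

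Glycolysis splits glucose into pyruvate in the cytosol, and lactate dehydrogenase converts pyruvate and lactate into each other. HIF is a pair of an alpha subunit, which prolyl hydroxylases and VHL mark for destruction when oxygen is plentiful, and the stable beta subunit ARNT. In low oxygen the alpha subunit persists and switches on genes for glucose use, pH balance, collagen maturation and mitochondrial clearance, among them most of the enzymes listed here. As all groups were kept in 2% oxygen, no group shows these genes in room air, and HIF protein was not measured in these files.

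The targeted genes followed the labels. DOT1L, the methyltransferase of lysine 79 of histone H3, had 10.2, 11.4 and 11.4 CPM in RAS/shDOT1L cells, 82.2, 82.7 and 88.4 CPM in RAS cells, 208, 207 and 191 CPM in DOT1L OE cells, against 33.5, 29.1 and 32.5 CPM in control cells (CPM are counts scaled to a common library size by TMM). HRAS had 261, 287 and 278 CPM in RAS/shDOT1L cells, 492, 511 and 506 CPM in RAS cells, 73.1, 81.7 and 83.3 CPM in DOT1L OE cells, against 82.9, 86.4 and 88.5 CPM in control cells. HRAS was therefore lower by 1.80-fold in RAS/shDOT1L than in RAS cells (log2 -0.85 ± 0.049, adjusted p = 3.87e-16), and the part of this difference in the results below was not tested. Libraries held 16128055 to 19503457 counts, and mitochondrial transcripts took 2.12% to 2.44% of them in RAS/shDOT1L, 3.64% to 3.87% in RAS, 2.26% to 2.43% in DOT1L OE and 2.31% to 2.54% in control. Of the defining fibroblast markers, all 10 were counted in every group, with summed levels of 16231 to 16816 CPM in RAS/shDOT1L, 14713 to 15138 CPM in RAS, 15129 to 15789 CPM in DOT1L OE and 19525 to 19757 CPM in control libraries, so that control stood above the rest. The 6 immune markers summed to at most 3.57 CPM in any library. The 8 epithelial markers summed to 356 to 379.9 CPM in RAS/shDOT1L, 109.5 to 121 CPM in RAS, 146 to 154 CPM in DOT1L OE and 262 to 281 CPM in control libraries, carried by simple keratins, while EPCAM, CDH1 and KRT5 averaged at most 1.54 CPM. Of 6 endothelial markers 5 were counted, with summed levels of 25.8 to 31.9 CPM in RAS/shDOT1L, 64.6 to 67.9 CPM in RAS, 134 to 147 CPM in DOT1L OE and 63.9 to 70.01 CPM in control libraries. Most of this was TEK, which averaged 23.5 CPM in RAS/shDOT1L, 61.1 in RAS, 129 in DOT1L OE and 67.1 in control. KDR averaged 11.6 CPM in DOT1L OE, and CDH5 and VWF averaged at most 0.106 and 1.25 CPM in any group. The part of these marker differences in the results was not tested.

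HIF binds DNA at short core letters, ACGTG or GCGTG, and the promoters of 5 members with large changes are shown with these letters in capitals on either strand, so that CACGT and CACGC are the same letters read on the opposite strand. The promoters were chosen after their values were seen. Each run is the 250 bases before the RefSeq transcription start, 5′ to 3′ along the gene, in GRCh38.p14.
ENO2: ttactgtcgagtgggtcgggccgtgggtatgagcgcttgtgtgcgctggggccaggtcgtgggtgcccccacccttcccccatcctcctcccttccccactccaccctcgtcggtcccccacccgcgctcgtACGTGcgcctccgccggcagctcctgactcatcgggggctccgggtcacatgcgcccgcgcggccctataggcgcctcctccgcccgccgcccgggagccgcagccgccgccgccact
PFKFB4: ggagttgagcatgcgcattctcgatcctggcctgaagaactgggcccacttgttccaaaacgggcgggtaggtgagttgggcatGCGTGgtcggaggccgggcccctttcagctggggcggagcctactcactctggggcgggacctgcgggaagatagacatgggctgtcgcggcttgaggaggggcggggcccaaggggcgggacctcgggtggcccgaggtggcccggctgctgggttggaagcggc
CA9: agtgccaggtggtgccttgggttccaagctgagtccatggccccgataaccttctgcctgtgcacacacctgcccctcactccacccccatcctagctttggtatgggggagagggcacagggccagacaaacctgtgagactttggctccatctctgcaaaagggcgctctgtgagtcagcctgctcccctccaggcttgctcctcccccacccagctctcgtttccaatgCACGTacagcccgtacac
BNIP3: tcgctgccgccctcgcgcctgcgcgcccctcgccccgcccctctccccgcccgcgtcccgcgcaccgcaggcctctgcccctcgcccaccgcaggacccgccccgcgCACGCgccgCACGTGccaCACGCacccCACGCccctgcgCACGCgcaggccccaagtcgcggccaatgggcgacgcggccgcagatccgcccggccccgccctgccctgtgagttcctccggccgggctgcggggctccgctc
ANKRD37: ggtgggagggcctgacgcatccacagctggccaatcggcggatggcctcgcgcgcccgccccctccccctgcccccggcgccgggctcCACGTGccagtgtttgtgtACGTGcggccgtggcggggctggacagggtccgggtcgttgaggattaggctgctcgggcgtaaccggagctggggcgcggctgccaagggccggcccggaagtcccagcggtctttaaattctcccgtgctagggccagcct
These runs lie at chr12:6914330-6914579, plus strand, for ENO2, chr3:48556804-48557053, minus strand, for PFKFB4, chr9:35673678-35673927, plus strand, for CA9, chr10:131981924-131982173, minus strand, for BNIP3, and chr4:185396591-185396840, plus strand, for ANKRD37. The ENO2 promoter holds 1 ACGTG, that of PFKFB4 1 GCGTG, and that of CA9 1 ACGTG on the opposite strand 18 bases before the start. BNIP3 holds the palindrome CACGTG, which reads as ACGTG on both strands, and 4 GCGTG on the opposite strand. ANKRD37 holds the same palindrome and 1 further ACGTG. Promoters of 35 of the 39 members were found in the RefSeq table, taken from 250 bases before to 50 bases after the start. ACGTG was in 14 of 35 (40%), GCGTG in 17 of 35 (48.6%) and either in 25 of 35 (71.4%). Among 27305 promoters of the same length, 21.6% held ACGTG, 36.3% GCGTG and 48.4% either. Of the members with the largest changes, EGLN3 and P4HA2 held neither set of letters in this window. A match is a run of letters and not a measured binding site.

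Taken per kilobase of exon, which allows levels of different genes to be compared, GAPDH stood highest in every group, at 2812 CPM per kb in RAS/shDOT1L, 2757 in RAS, 1935 in DOT1L OE and 1742 in control cells. ALDOA was second in every group, followed by TPI1, PKM and ENO1 in an order that differed between groups. EGLN3, CA12, CA9 and ANKRD37 were among the lowest, at 0.238 to 4.05 CPM per kb over the group means. Together the 39 genes took 3.56% ± 0.047 of all counts in RAS/shDOT1L, 3.37% ± 0.042 in RAS, 2.91% ± 0.014 in DOT1L OE and 2.64% ± 0.015 in control libraries (SD, n = 3). These are shares of raw counts, without the TMM scaling used for CPM. The TMM factors were 0.951 to 0.973 in RAS/shDOT1L and 0.903 to 0.909 in RAS, so the order of these groups need not hold in CPM. Peak groups were taken from mean CPM, without correction for GC content. Of the 17 enzymes, 11 had their highest mean in RAS, 4 in RAS/shDOT1L, 2 in DOT1L OE and 0 in control. Of all 39 members, which include these enzymes, 17 peaked in RAS/shDOT1L, 17 in RAS, 2 in DOT1L OE and 3 in control. Peak groups were not counted over all genes, so whether these counts are particular to the list is not known. With the trend over GC content described below removed, ALDOA (log2 0.19) and TPI1 (0.24) were called higher in RAS/shDOT1L than in RAS. GPI (0.0062), PFKL (0.070) and PGAM1 (0.083) also turned above RAS but did not pass.

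**Figure D1:**
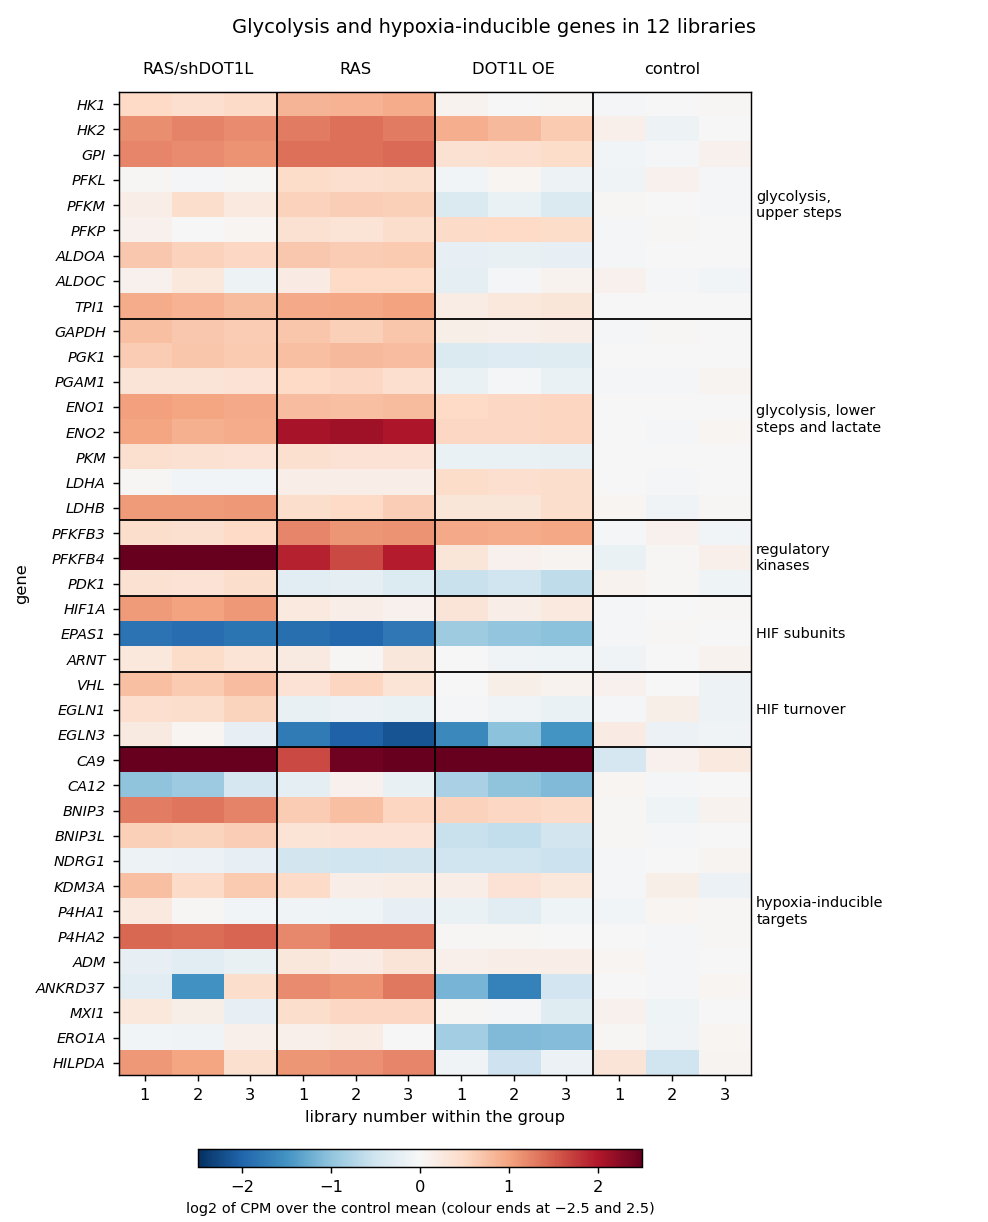
Level of each of the 39 genes (rows, grouped by role) in each of the 12 libraries (columns), as log2 of the CPM over the mean of the 3 control libraries. Red is above and blue below the control mean, on the colour scale drawn below the map: glycolytic enzymes are red in RAS (PFKL and LDHA turn with another scaling), EPAS1 is blue in all 9 libraries of the other groups, and PFKFB4 is darkest in RAS/shDOT1L.

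RAS against control asks how oncogenic HRAS changed the list. All 17 glycolytic enzymes were higher in RAS cells, from 1.12-fold for LDHA to 4.19-fold for ENO2, together with the regulators PFKFB3 and PFKFB4, but PFKL turned lower with the GC trend removed and LDHA with library size as the only scaling. EPAS1, which encodes the alpha subunit HIF-2α, and EGLN3, a HIF prolyl hydroxylase, were 3.68-fold and 3.91-fold lower. HIF1A was at log2 0.17, which became 0.73 with the GC trend removed and -0.030 on library size alone. CA9, a carbonic anhydrase that is a classic mark of hypoxia, and P4HA2, a collagen prolyl hydroxylase, rose. In edgeR's quasi-likelihood fit, with calls at an adjusted p under 0.05, 30 of 39 members were higher and 5 lower, and 4 did not pass. Over all 13554 genes tested, 31.9% were called higher and 32% lower. Against a change of over 1.5-fold, 15 members were higher and 2 lower, against 13.4% and 13.6% of all genes. The median log2 fold change was 0.66 over the 17 enzymes, 0.28 over the 22 others and -0.043 over all genes. Fold changes in RAS followed the GC content of the transcript. The median log2 fold change over all genes was -0.62 in the tenth of genes with the lowest GC content and 0.58 in the tenth with the highest. The enzymes had a median GC content of 53.1%, against 47.8% over the genes tested. With this trend removed, 14 of 17 enzymes were higher, PFKL was lower, PFKP and ALDOC did not pass, the median of the enzymes was 0.49, and 29 members in all were higher. With library size as the only scaling, which moved the median of all genes to -0.24, 15 enzymes and 23 members were higher.

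RAS/shDOT1L against RAS compares oncogene cells with the DOT1L hairpin to oncogene cells without it. The list moved in both directions. HIF1A, EGLN3, PFKFB4, BNIP3 and PDK1 were higher in RAS/shDOT1L cells, and ENO2, PFKFB3 and ANKRD37 were lower. Of the 9 upper glycolytic enzymes 7 were called lower, but with the GC trend of the libraries removed only HK1 of these 7 remained so, GPI (log2 0.0062), PFKL (0.070) and TPI1 (0.24) turned, and PFKM (-0.13), PFKP (-0.069) and ALDOC (-0.027) no longer passed. Of the 39 members 15 were higher and 16 lower, against 26.3% and 26.4% of the 13398 genes tested. Changes of over 1.5-fold were called for 3 higher (EGLN3, PFKFB4 and HIF1A) and 2 lower members (ANKRD37 and ENO2), against 8.34% and 8.62% of all genes. Of the enzymes, 2 of 17 were higher and 11 lower, with a median of log2 -0.11, and of the others 13 of 22 were higher and 5 lower, with a median of 0.24, beside a median of 0.028 over all genes. The GC trend ran the other way here, with medians of 0.39 for the GC-poorest and -0.43 for the GC-richest genes. With it removed, 6 enzymes were higher and 4 lower, and 10 members in all were lower, while 10 of the 22 others were higher and 6 lower. ENO2, PFKFB3, PFKFB4, EGLN3 and HIF1A kept call and direction, but HIF1A was then at log2 0.57, which is less than 1.5-fold. HRAS and the summed keratins also differed between these groups, as given above, and their part was not tested.

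DOT1L OE against control asks what DOT1L did without the oncogene. HK2, PFKFB3 and CA9 were higher in DOT1L OE cells by over 1.5-fold, and EGLN3, ERO1A, CA12 and EPAS1 were lower by over 1.5-fold. Of 39 members 15 were higher and 14 lower, against 29.9% in each direction of the 13660 genes tested. Over 1.5-fold these were 3 higher and 4 lower members, against 11.2% and 9.58% of all genes. The enzymes split into 9 higher and 5 lower, with a median of log2 0.16, and the others into 6 higher and 9 lower, with a median of -0.098, beside 0.0060 over all genes. The GC trend was weaker here, with medians of -0.20 for the GC-poorest and 0.13 for the GC-richest genes. With it removed, 9 enzymes were higher and 6 lower, with a median of 0.11. PFKL was then called lower (log2 -0.15, adjusted p = 0.00905).

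RAS/shDOT1L against control sets cells with both vectors against control, and shares its libraries with the comparisons above. Of 39 members 26 were higher and 4 lower, against 27.9% and 27.6% of the 13519 genes tested. Over 1.5-fold, 13 were higher and 1, EPAS1, was lower, against 9.44% and 9.68% of all genes. Of the 17 enzymes 13 were higher and 0 lower, and LDHA, PFKL, PFKP and ALDOC did not pass. With library size as the only scaling LDHA was called lower (log2 -0.15, adjusted p = 0.000173). With the GC trend removed LDHA was called higher (log2 0.099, adjusted p = 0.0236) and PFKL lower (log2 -0.16, adjusted p = 0.0107). The medians were 0.60 over the enzymes, 0.42 over the others and -0.0093 over all genes.

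**Figure D2:**
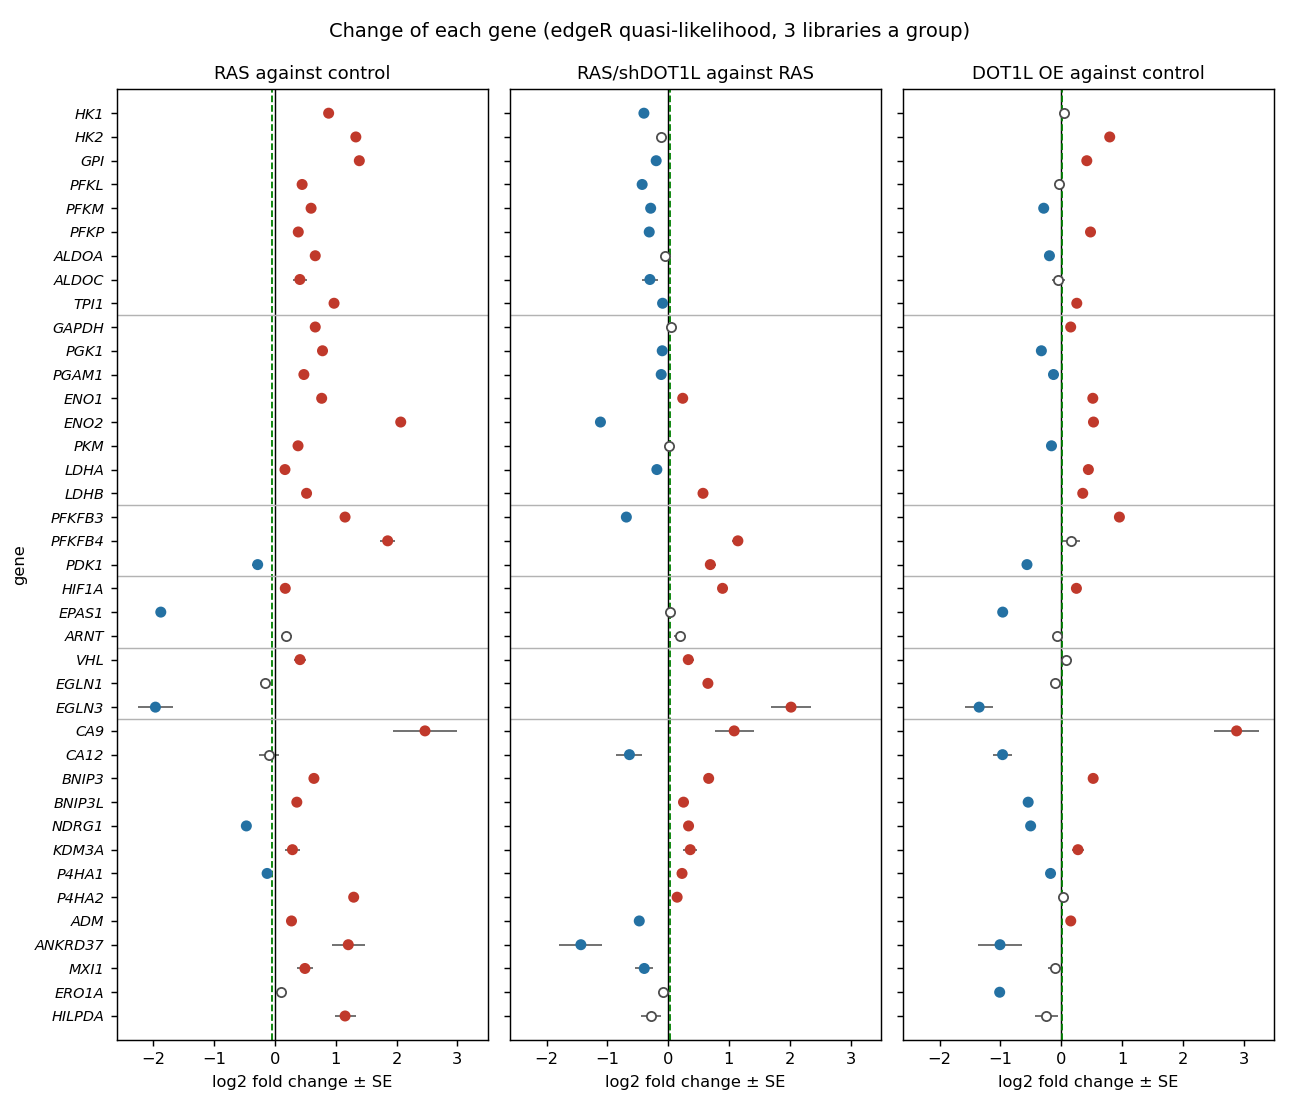
Log2 fold change of each gene in 3 comparisons, with its standard error as a bar. Filled points passed the test (red higher, blue lower), open points did not, grey lines part the roles and the green dashed line is the median of all genes tested. RAS against control has all 17 enzymes right of 0 (PFKL turns with the GC trend removed and LDHA with library size only). RAS/shDOT1L against RAS has ENO2 at -1.11 and PFKFB4 at 1.15.

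Upper glycolysis begins with hexokinase, which traps glucose in the cell. HK2, the inducible hexokinase, had 131, 138 and 133 CPM in RAS/shDOT1L cells, 144, 152 and 144 CPM in RAS cells, 109, 103 and 91.4 CPM in DOT1L OE cells, against 63.5, 53.5 and 57.9 CPM in control cells. HK2 was highest in RAS, then in RAS/shDOT1L and DOT1L OE, and lowest in control, and no 2 groups overlapped. It was higher by 2.51-fold in RAS than in control (log2 1.33 ± 0.067, adjusted p = 5.85e-18) and higher by 1.74-fold in DOT1L OE than in control (log2 0.80 ± 0.072, adjusted p = 3.1e-11), and its difference between RAS/shDOT1L and RAS did not pass (log2 -0.11 ± 0.062, adjusted p = 0.129). HK1, the widespread hexokinase, averaged 337 ± 10.7 CPM in RAS/shDOT1L, 450.4 ± 11.5 CPM in RAS, 251 ± 8.92 CPM in DOT1L OE and 244 ± 8.02 CPM in control cells (SD, n = 3), lower in RAS/shDOT1L than in RAS (log2 -0.40 ± 0.048). GPI, which turns glucose phosphate into fructose phosphate, had 601, 583 and 558 CPM in RAS/shDOT1L cells, 665, 668 and 689.9 CPM in RAS cells, 335, 343 and 354 CPM in DOT1L OE cells, against 247, 248 and 278 CPM in control cells. All 9 libraries of the other groups lay above the control libraries. GPI was higher by 2.61-fold in RAS (log2 1.39 ± 0.044, adjusted p = 1.22e-23).

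Phosphofructokinase, the main control point of the pathway, has liver, muscle and platelet forms. The liver form PFKL had 287, 272 and 287 CPM in RAS/shDOT1L cells, 389, 379 and 385 CPM in RAS cells, 269, 294 and 259.97 CPM in DOT1L OE cells, against 267, 304 and 275 CPM in control cells. RAS stood apart and the other groups overlapped. The rise in RAS (log2 0.45 ± 0.046) turned to -0.20 with the GC trend removed, so the direction of PFKL depends on that choice. The platelet form PFKP had 481, 454 and 464 CPM in RAS/shDOT1L cells, 581, 568 and 609 CPM in RAS cells, 626, 633 and 618 CPM in DOT1L OE cells, against 441, 461 and 447 CPM in control cells. With LDHA it was 1 of 2 enzymes highest in DOT1L OE (log2 0.48 ± 0.040, adjusted p = 4.03e-12), and its change in RAS (log2 0.38) was log2 0.025 and no longer passed with the GC trend removed. PFKM, the muscle form, rose in RAS (log2 0.59) and fell in DOT1L OE (log2 -0.29). Further down, aldolase A (ALDOA) and triosephosphate isomerase (TPI1) rose in RAS by log2 0.66 and 0.97. The rise of TPI1 in RAS was smaller, at log2 0.50, with the GC trend removed. In RAS/shDOT1L against RAS TPI1 fell by 0.092 and did not pass without RAS replicate 3, RAS/shDOT1L replicate 2 or RAS/shDOT1L replicate 3 (adjusted p = 0.0641 to 0.196), and with the GC trend removed it was higher, at 0.24. ALDOC, the low brain-type aldolase, had 25.9, 28.7 and 22.1 CPM in RAS/shDOT1L cells, against 27.6, 34.1 and 33.95 CPM in RAS cells, groups that overlapped, and its fall (log2 -0.30 ± 0.13, adjusted p = 0.0478) did not pass without RAS replicate 2, RAS replicate 3, RAS/shDOT1L replicate 1 or RAS/shDOT1L replicate 3 (adjusted p = 0.0732 to 0.222).

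Lower glycolysis held the largest rise among the enzymes. ENO2, the neuronal form of enolase, had 215, 199.5 and 206 CPM in RAS/shDOT1L cells, 452, 468 and 441 CPM in RAS cells, 155, 155 and 157 CPM in DOT1L OE cells, against 109, 104 and 111 CPM in control cells. The groups did not overlap, with RAS far above the rest and RAS/shDOT1L between RAS and DOT1L OE. ENO2 was higher by 4.19-fold in RAS than in control (log2 2.07 ± 0.047, adjusted p = 1.16e-27), lower by 2.16-fold in RAS/shDOT1L than in RAS (log2 -1.11 ± 0.050, adjusted p = 6.36e-19), and still higher by 1.92-fold in RAS/shDOT1L than in control (log2 0.94 ± 0.057, adjusted p = 3.65e-14). ENO1, the enolase found in most cells, did not share the fall. It averaged 4874 ± 114 CPM in RAS/shDOT1L, 4181 ± 49.9 CPM in RAS, 3509.7 ± 38.1 CPM in DOT1L OE and 2455 ± 26.3 CPM in control cells, higher in RAS/shDOT1L than in RAS (log2 0.24 ± 0.029, adjusted p = 2.16e-08). GAPDH, PGK1, PGAM1 and PKM rose in RAS by log2 0.66, 0.78, 0.47 and 0.38. The rise of GAPDH in RAS was smaller, at log2 0.19, with the GC trend removed. PGK1, PGAM1 and PKM were lower in DOT1L OE, by 0.33, 0.13 and 0.16, and GAPDH was higher (log2 0.16). PGAM1 in DOT1L OE did not pass without control replicate 3 (adjusted p = 0.0948).

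Lactate dehydrogenase is built from A chains, which favour lactate formation, and B chains, which favour its use. LDHA averaged 1908 ± 73.00 CPM in RAS/shDOT1L, 2198 ± 13.5 CPM in RAS, 2666 ± 41.95 CPM in DOT1L OE and 1962 ± 30.7 CPM in control cells, and so was highest in DOT1L OE (log2 0.45 ± 0.031, adjusted p = 6.18e-14). Its rise in RAS, log2 0.16, turned to -0.035 with library size as the only scaling. LDHB averaged 418 ± 0.509 CPM in RAS/shDOT1L, 285 ± 18.4 CPM in RAS, 253 ± 13.9 CPM in DOT1L OE and 199 ± 10.1 CPM in control cells. LDHB was higher in RAS/shDOT1L than in RAS (log2 0.57 ± 0.051, adjusted p = 1.73e-11) and was the enzyme with the largest rise in that comparison.

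Isoenzymes of a step were compared within each library, where scaling between libraries plays no part. The GC trend can still act on such shares, as isoenzymes differ in GC content, and the shares were not corrected for it. ENO2 made 4.92% ± 0.16 of enolase counts per kilobase in RAS/shDOT1L, 11.7% ± 0.43 in RAS, 5.13% ± 0.036 in DOT1L OE and 5.09% ± 0.15 in control cells (SD, n = 3). LDHB made 30.7% ± 0.82 of lactate dehydrogenase counts in RAS/shDOT1L, 20.7% ± 1.10 in RAS, 16.1% ± 0.75 in DOT1L OE and 17.0% ± 0.51 in control cells. HK2 made 31.6% ± 1.23 of hexokinase counts in RAS/shDOT1L, 27.4% ± 0.88 in RAS, 31.8% ± 1.81 in DOT1L OE and 21.7% ± 1.93 in control cells. PFKP made 56.5% ± 1.03 of phosphofructokinase counts in RAS/shDOT1L, 55.3% ± 0.79 in RAS, 66.6% ± 1.22 in DOT1L OE and 57.1% ± 0.66 in control cells. ALDOC stayed between 0.82% and 1.28% of aldolase counts in the means of all groups. The ENO2 share stood highest in RAS, the PFKP share in DOT1L OE and the LDHB share in RAS/shDOT1L. Of 20 comparisons of such a ratio, 13 had groups that did not overlap, each with a two-sided exact permutation p = 0.1, the smallest that 3 libraries against 3 allow, and p = 0.154 after Benjamini-Hochberg adjustment. The share without overlap among other pairs of genes was not computed, so this count has no background beside it. The size of a share depends on the length taken for each gene. For the pairs of HK2, ENO2 and LDHB a change of length cannot alter the order of the libraries. For PFKP, taken among the liver, muscle and platelet forms, the order of the group means was the same under each length used.

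**Figure D3:**
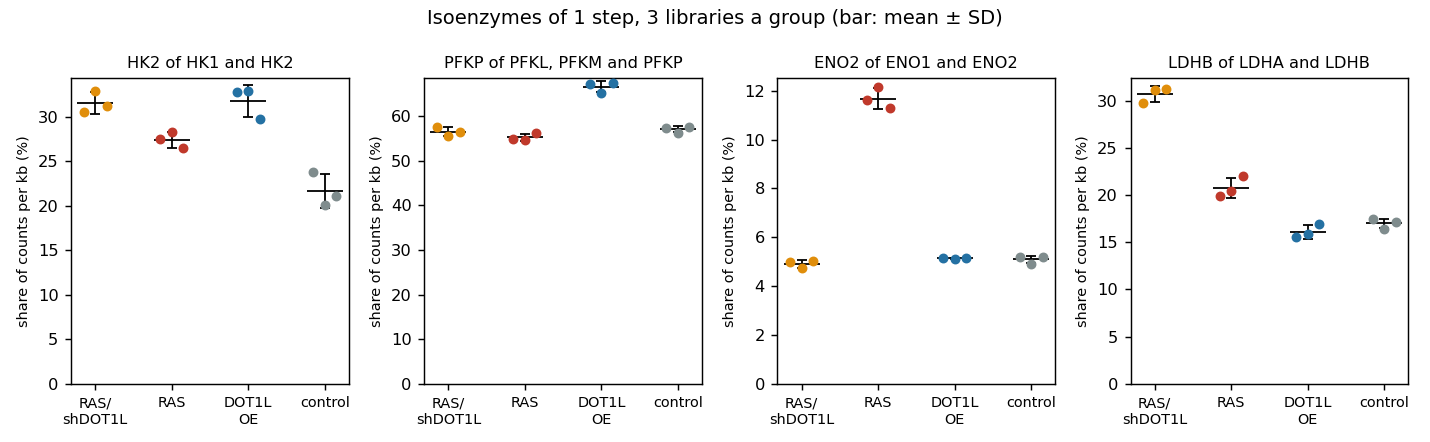
Share of one isoenzyme among the isoenzymes of its step, in percent of counts per kilobase of exon, for each library (points) with the mean and SD (bars). RAS libraries stand at 11.3% to 12.1% for ENO2 and those of the other groups at 4.73% to 5.18%, and RAS/shDOT1L libraries stand at 29.8% to 31.2% for LDHB.

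Of the regulatory kinases, PFKFB3 and PFKFB4 set the level of a sugar phosphate that activates phosphofructokinase, and PDK1 shuts pyruvate out of the mitochondrial pyruvate dehydrogenase. PFKFB3 had 92.7, 90.6 and 97.3 CPM in RAS/shDOT1L cells, 159, 148 and 150.1 CPM in RAS cells, 133, 131 and 134 CPM in DOT1L OE cells, against 67.03, 73.7 and 65.2 CPM in control cells. It was highest in RAS, next in DOT1L OE, then RAS/shDOT1L, and lowest in control, with no overlap. PFKFB3 was higher by 2.22-fold in RAS than in control (log2 1.15 ± 0.064, adjusted p = 6.88e-17), lower by 1.61-fold in RAS/shDOT1L than in RAS (log2 -0.69 ± 0.066, adjusted p = 1.1e-10) and higher by 1.94-fold in DOT1L OE than in control (log2 0.96 ± 0.061, adjusted p = 6e-15). PFKFB4 had 89.3, 89.4 and 83.3 CPM in RAS/shDOT1L cells, 41.7, 34.9 and 43.2 CPM in RAS cells, 13.6, 11.9 and 11.6 CPM in DOT1L OE cells, against 9.86, 11.3 and 12.01 CPM in control cells. It moved the other way between RAS/shDOT1L and RAS: higher by 2.21-fold in RAS/shDOT1L than in RAS (log2 1.15 ± 0.089, adjusted p = 7.65e-13), higher by 3.61-fold in RAS than in control (log2 1.85 ± 0.13, adjusted p = 2.21e-14), and higher by 7.93-fold in RAS/shDOT1L than in control. DOT1L OE overlapped control for PFKFB4 (log2 0.17 ± 0.14, adjusted p = 0.324). PDK1 had 61.7, 61.3 and 64.3 CPM in RAS/shDOT1L cells, 39.5, 40.2 and 37.6 CPM in RAS cells, 32.3, 33.5 and 30.6 CPM in DOT1L OE cells, against 50.4, 48.4 and 44.2 CPM in control cells. It was highest in RAS/shDOT1L (log2 0.69 ± 0.091, adjusted p = 7.52e-08 against RAS) and lowest in DOT1L OE (log2 -0.56 ± 0.085, adjusted p = 8.71e-07 against control). The small fall of PDK1 in RAS (log2 -0.29) turned to 0.17 with the GC trend removed.

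The HIF subunits did not move together. HIF1A, which encodes the alpha subunit HIF-1α, had 327, 315 and 331 CPM in RAS/shDOT1L cells, 186, 176 and 169 CPM in RAS cells, 197, 175 and 187 CPM in DOT1L OE cells, against 154, 157 and 160.3 CPM in control cells. RAS/shDOT1L stood apart from all other groups, higher by 1.86-fold than RAS (log2 0.89 ± 0.055, adjusted p = 1.63e-15) and higher by 2.07-fold than control (log2 1.05 ± 0.050, adjusted p = 1.69e-16). The rise over RAS was smaller, at log2 0.57, with the GC trend removed (adjusted p = 1.13e-10). The rise of HIF1A in RAS (log2 0.17 ± 0.053) was not settled: it was 0.73 with the GC trend removed and -0.030 where libraries were scaled by their size only. EPAS1 had 171, 165 and 174 CPM in RAS/shDOT1L cells, 169, 158 and 179 CPM in RAS cells, 337, 311 and 305 CPM in DOT1L OE cells, against 600.5, 637 and 624 CPM in control cells. Control was highest, DOT1L OE was in between, and RAS/shDOT1L and RAS overlapped at the lowest level. EPAS1 was lower by 3.68-fold in RAS (log2 -1.88 ± 0.045, adjusted p = 6.58e-27), lower by 1.95-fold in DOT1L OE (log2 -0.96 ± 0.044, adjusted p = 1.4e-18) and lower by 3.63-fold in RAS/shDOT1L than in control, and its difference between RAS/shDOT1L and RAS did not pass (log2 0.032 ± 0.060, adjusted p = 0.691). With the GC trend removed EPAS1 was higher in RAS/shDOT1L than in RAS, by log2 0.23. ARNT, the shared beta subunit, had 58.03, 65.97 and 60.7 CPM in RAS/shDOT1L cells, 56.1, 49.3 and 58.7 CPM in RAS cells, 47.7, 45.3 and 44.7 CPM in DOT1L OE cells, against 45.3, 48.01 and 50.9 CPM in control cells. In the comparisons made only RAS/shDOT1L and control did not overlap, and it was higher in RAS/shDOT1L (log2 0.36 ± 0.086, adjusted p = 0.000669).

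Among genes of HIF turnover, VHL, the substrate arm of the ubiquitin ligase, had 59.3, 55.2 and 60.1 CPM in RAS/shDOT1L cells, 44.99, 51.2 and 44.4 CPM in RAS cells, 34.8, 39.3 and 37.5 CPM in DOT1L OE cells, against 37.9, 35.6 and 32.3 CPM in control cells. It was highest in RAS/shDOT1L, with rises in RAS against control (log2 0.41 ± 0.096, adjusted p = 0.000402) and in RAS/shDOT1L against RAS (log2 0.33 ± 0.092, adjusted p = 0.00278). The rise of VHL in RAS did not pass with library size as the only scaling (log2 0.21, adjusted p = 0.0554). EGLN1, the main HIF prolyl hydroxylase, had 90.5, 90.9 and 98.6 CPM in RAS/shDOT1L cells, 59.5, 60.7 and 60.1 CPM in RAS cells, 64.8, 63.5 and 59.6 CPM in DOT1L OE cells, against 66.3, 74.3 and 61.4 CPM in control cells. It was higher in RAS/shDOT1L than in RAS (log2 0.65 ± 0.077, adjusted p = 8.25e-09) and did not pass in RAS or DOT1L OE against control. EGLN3, a hydroxylase that is itself induced by hypoxia, had 8.08, 7.09 and 5.99 CPM in RAS/shDOT1L cells, 2.03, 1.70 and 1.53 CPM in RAS cells, 2.24, 3.36 and 2.43 CPM in DOT1L OE cells, against 7.89, 6.25 and 6.48 CPM in control cells. RAS and DOT1L OE were low, RAS/shDOT1L and control overlapped, and no library of the low groups reached those of the high ones. EGLN3 was lower by 3.91-fold in RAS (log2 -1.97 ± 0.29, adjusted p = 5.57e-07), higher by 4.06-fold in RAS/shDOT1L than in RAS (log2 2.02 ± 0.32, adjusted p = 2.53e-06) and lower by 2.55-fold in DOT1L OE than in control (log2 -1.35 ± 0.23, adjusted p = 7.7e-06). It rests on few reads.

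**Figure D4:**
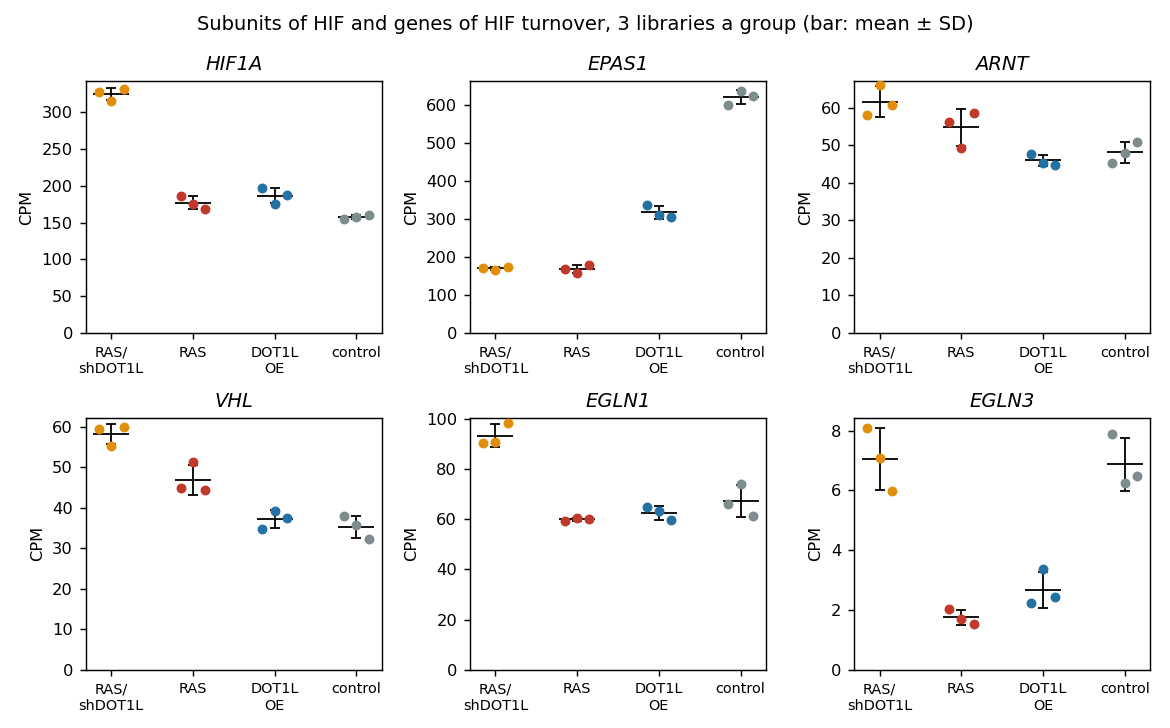
CPM of 3 HIF subunits (upper row) and 3 genes of HIF turnover (lower row) in each library (points), with the mean and SD of each group (bars), on axes from 0. HIF1A stands at 315 to 331 CPM in RAS/shDOT1L, EPAS1 at 600.5 to 637 CPM in control, and EGLN3 is low in RAS and DOT1L OE.

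Of the 13 hypoxia-inducible targets, 9 were higher and 2 lower in RAS than in control, 7 were higher and 4 lower in RAS/shDOT1L than in RAS, and 4 were higher and 6 lower in DOT1L OE than in control. The shares over all genes were 31.9% higher and 32% lower in RAS, 26.3% and 26.4% in RAS/shDOT1L against RAS, and 29.9% in each direction in DOT1L OE, so that several of these counts lie near the share of all genes. CA9, a carbonic anhydrase at the cell surface, had 5.22, 7.21 and 7.002 CPM in RAS/shDOT1L cells, 1.73, 2.97 and 4.60 CPM in RAS cells, 4.27, 4.44 and 3.65 CPM in DOT1L OE cells, against 0.413, 0.593 and 0.653 CPM in control cells. All libraries of the other groups lay above all control libraries, and RAS libraries spread most. CA9 was higher in RAS (log2 2.47 ± 0.53, adjusted p = 0.000155), in DOT1L OE (log2 2.88 ± 0.37, adjusted p = 4.75e-08) and in RAS/shDOT1L (log2 3.54 ± 0.39, adjusted p = 7.44e-09) than in control, and higher in RAS/shDOT1L than in RAS (log2 1.09 ± 0.32, adjusted p = 0.00506). It was at or under 7.21 CPM throughout, and 35.7% of its exon bases overlap ARHGEF39 on the opposite strand, which averaged 1.21 to 2.10 CPM. As the strand setting of the counts is not stated, reads of the overlap cannot be told apart. CA12, a related carbonic anhydrase, had 5.93, 6.27 and 8.89 CPM in RAS/shDOT1L cells, 10.1, 12.8 and 10.4 CPM in RAS cells, 6.72, 5.93 and 5.52 CPM in DOT1L OE cells, against 12.2, 11.5 and 11.8 CPM in control cells. It was lower in DOT1L OE (log2 -0.97 ± 0.16, adjusted p = 4.78e-06) and in RAS/shDOT1L than in RAS (log2 -0.64 ± 0.21, adjusted p = 0.0127), the second of which did not pass without RAS replicate 2, RAS/shDOT1L replicate 1 or RAS/shDOT1L replicate 2 (adjusted p = 0.0527 to 0.0774).

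BNIP3 and BNIP3L mark mitochondria for autophagy. BNIP3 had 284, 295 and 278 CPM in RAS/shDOT1L cells, 182, 196 and 169 CPM in RAS cells, 174, 168 and 162 CPM in DOT1L OE cells, against 119, 108 and 123 CPM in control cells. It was highest in RAS/shDOT1L and lowest in control, and RAS and DOT1L OE overlapped. BNIP3 was higher in RAS/shDOT1L than in RAS (log2 0.67 ± 0.058, adjusted p = 9.15e-12), in RAS than in control (log2 0.64 ± 0.060, adjusted p = 4.66e-11) and in DOT1L OE than in control (log2 0.53 ± 0.056, adjusted p = 1.3e-09). BNIP3L averaged 346 ± 6.08 CPM in RAS/shDOT1L, 294 ± 1.76 CPM in RAS, 157 ± 8.93 CPM in DOT1L OE and 229 ± 5.57 CPM in control cells, and so fell in DOT1L OE (log2 -0.54) where BNIP3 rose. Its rise in RAS/shDOT1L over RAS (log2 0.25) turned to -0.049 with the GC trend removed.

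The collagen prolyl hydroxylases differed from each other. P4HA2 had 381, 373 and 387 CPM in RAS/shDOT1L cells, 327, 359 and 358 CPM in RAS cells, 144, 145 and 142 CPM in DOT1L OE cells, against 144, 137 and 145 CPM in control cells. The RAS/shDOT1L and RAS libraries lay far above those of DOT1L OE and control, which overlapped. P4HA2 was higher by 2.45-fold in RAS than in control (log2 1.29 ± 0.049, adjusted p = 1.82e-21). Its small rise in RAS/shDOT1L over RAS (log2 0.15) did not pass without RAS replicate 1 (adjusted p = 0.118) or with the GC trend removed (log2 0.062, adjusted p = 0.325). P4HA1, the other catalytic chain, had 250.05, 215 and 201 CPM in RAS/shDOT1L cells, 198, 195 and 183 CPM in RAS cells, 187, 174 and 195 CPM in DOT1L OE cells, against 200.4, 216 and 213 CPM in control cells. It changed by at most log2 0.23 in the comparisons, and its fall in RAS turned to 0.26 with the GC trend removed. It also did not pass in RAS without control replicate 2, control replicate 3 or RAS replicate 3 (adjusted p = 0.0844 to 0.138), in RAS/shDOT1L against RAS without RAS/shDOT1L replicate 1 (adjusted p = 0.0588) or with the GC trend removed (adjusted p = 0.81), or in DOT1L OE without DOT1L OE replicate 2 (adjusted p = 0.0747). ERO1A, an oxidase of protein folding, had 111, 109.6 and 127 CPM in RAS/shDOT1L cells, 126, 132 and 115 CPM in RAS cells, 63.7, 54.02 and 54.4 CPM in DOT1L OE cells, against 119, 109 and 120.2 CPM in control cells. In these CPM only DOT1L OE stood apart, lower by 2.02-fold than control (log2 -1.01 ± 0.069, adjusted p = 2.74e-14). ERO1A in RAS did not pass as tested (log2 0.10) and was higher, at 0.64, with the GC trend removed. In that setting it was also lower in RAS/shDOT1L than in RAS (log2 -0.38, adjusted p = 3.21e-05). Against control RAS/shDOT1L was then higher (log2 0.23, adjusted p = 0.00448).

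NDRG1, a stress-responsive gene, had 484, 476 and 457 CPM in RAS/shDOT1L cells, 383, 372 and 383 CPM in RAS cells, 374, 374 and 362 CPM in DOT1L OE cells, against 507, 519 and 551 CPM in control cells. It was highest in control and lower in RAS (log2 -0.47 ± 0.040, adjusted p = 4.23e-12) and DOT1L OE (log2 -0.50 ± 0.043, adjusted p = 8.06e-12), and higher in RAS/shDOT1L than in RAS (log2 0.34 ± 0.047, adjusted p = 2.3e-07). ADM, the vasodilator peptide adrenomedullin, had 174, 167 and 178 CPM in RAS/shDOT1L cells, 246, 232 and 253 CPM in RAS cells, 222, 226 and 226 CPM in DOT1L OE cells, against 209.6, 194 and 202 CPM in control cells. RAS was highest and RAS/shDOT1L lowest (log2 -0.47 ± 0.057, adjusted p = 1.15e-08). The rise of ADM in RAS (log2 0.27) turned to -0.21 with the GC trend removed. ANKRD37, an ankyrin repeat gene induced by HIF, had 2.35, 1.003 and 3.85 CPM in RAS/shDOT1L cells, 6.44, 6.24 and 7.08 CPM in RAS cells, 1.28, 0.887 and 2.06 CPM in DOT1L OE cells, against 2.84, 2.75 and 2.97 CPM in control cells. RAS libraries stood above all others, higher by 2.30-fold than control (log2 1.20 ± 0.27, adjusted p = 0.000209) and with RAS/shDOT1L lower by 2.71-fold (log2 -1.44 ± 0.35, adjusted p = 0.00084). Its fall in DOT1L OE (log2 -1.01 ± 0.36, adjusted p = 0.0174) did not pass without DOT1L OE replicate 1 or DOT1L OE replicate 2 (adjusted p = 0.0539 and 0.113). UFSP2 on the opposite strand covers 40.3% of the exon bases of ANKRD37, at 16.3 to 24.3 CPM, more than ANKRD37 itself.

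HILPDA, which coats lipid droplets, was higher in RAS than in control (log2 1.15 ± 0.17, adjusted p = 6.9e-07). MXI1, an antagonist of MYC, was higher in RAS (log2 0.49 ± 0.13, adjusted p = 0.00164) and lower in RAS/shDOT1L than in RAS (log2 -0.39 ± 0.15, adjusted p = 0.0255), a fall that did not pass without RAS replicate 2, RAS replicate 3 or RAS/shDOT1L replicate 3 (adjusted p = 0.06 to 0.151). KDM3A, a histone demethylase, rose in all comparisons, by log2 0.28 to 0.64. Its rise in RAS did not pass without control replicate 1, control replicate 3 or RAS replicate 1 (adjusted p = 0.102 to 0.231), and that in RAS/shDOT1L over RAS did not pass without RAS replicate 2, RAS replicate 3 or RAS/shDOT1L replicate 1 (adjusted p = 0.0509 to 0.0648) or with the GC trend removed (log2 0.17, adjusted p = 0.242). That in DOT1L OE did not pass without control replicate 1, control replicate 3 or DOT1L OE replicate 2 (adjusted p = 0.0634 to 0.116).

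**Figure D5:**
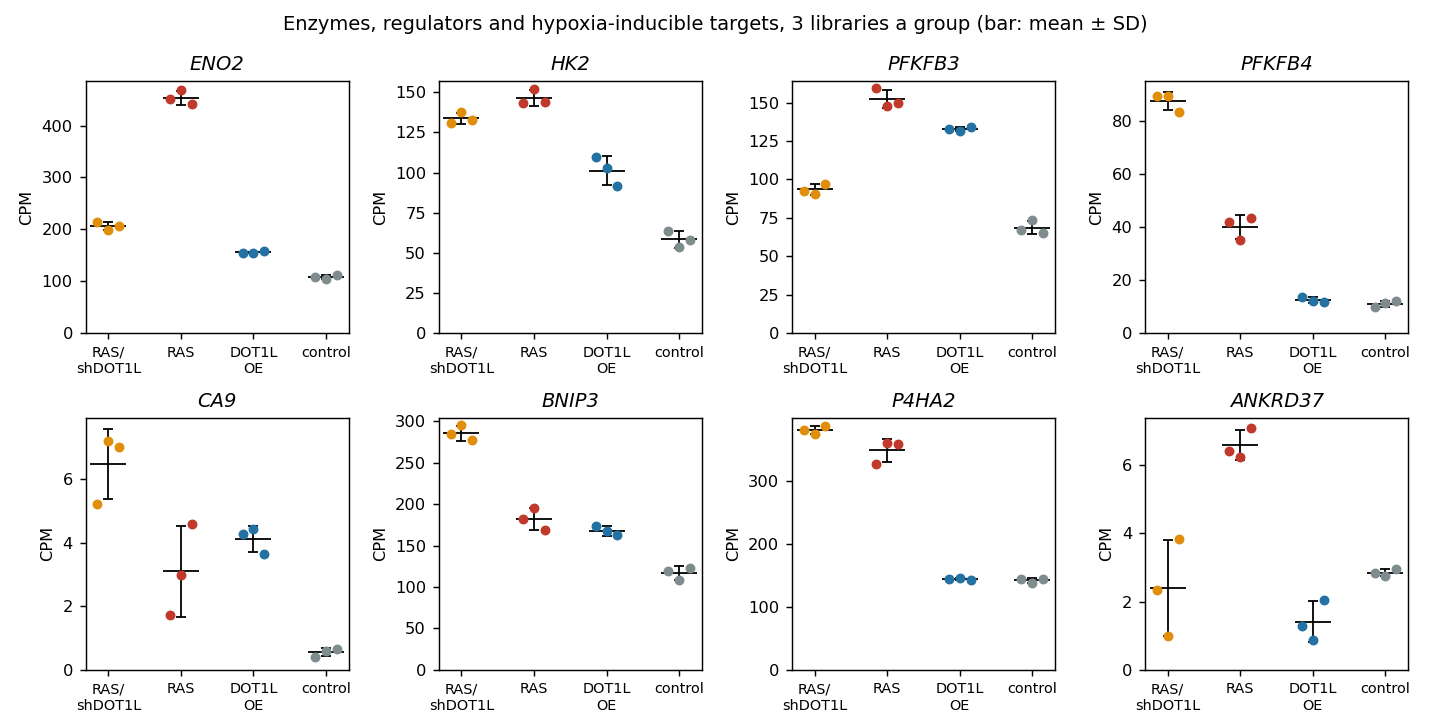
CPM of 8 genes in each library (points), with the mean and SD of each group (bars), on axes from 0. ENO2 and ANKRD37 are highest in RAS, PFKFB4, CA9 and BNIP3 in RAS/shDOT1L, and HK2 and PFKFB3 stand above control also in DOT1L OE, at 91.4 to 109 and 131 to 134 CPM.

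Genes around the pathway were taken from further lists, whose counts stand beside 31.9% higher and 32% lower of all genes tested in RAS against control, 26.3% and 26.4% in RAS/shDOT1L against RAS, and 29.9% in each direction in DOT1L OE against control. Of 15 transporters of glucose, lactate and pyruvate, 13 were tested in RAS against control, and 5 were higher and 4 lower, with a median of log2 -0.13, beside 31.9% and 32% of all genes. By log2 fold change the leading genes there were SLC2A6 1.84, SLC16A3 1.32 and BSG 0.86 among those higher and SLC16A7 -2.25, SLC2A12 -2.16 and SLC2A1 -0.81 among those lower. SLC16A3 is the main exporter of lactate in glycolytic cells, and SLC2A1 the basal glucose transporter. SLC16A3 had 253, 256 and 272 CPM in RAS/shDOT1L cells, 1409.96, 1439 and 1458 CPM in RAS cells, 646, 734 and 689 CPM in DOT1L OE cells, against 604, 536 and 579.8 CPM in control cells. It was highest in RAS and lowest in RAS/shDOT1L, lower by 5.44-fold than RAS (log2 -2.44 ± 0.044, adjusted p = 3.6e-30) and lower by 2.19-fold than control. SLC16A1, a second lactate carrier, averaged 21.6 ± 0.936 CPM in RAS/shDOT1L and 71.2 ± 7.12 CPM in RAS cells (log2 -1.70 ± 0.10). In that comparison 4 of 13 transporters were higher and 5 lower, the higher led by SLC2A12 at log2 1.74, SLC2A3, a high-affinity glucose transporter, at 1.33 and MPC2 at 0.32, and the lower including SLC2A6 at -1.30. In DOT1L OE against control 1, SLC16A3, was higher (log2 0.27) and 11 were lower, led by SLC2A4, EMB and SLC2A12 at -2.86, -1.40 and -0.92.

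Of 33 further enzymes of glycolysis and pyruvate use, 19 were tested. In RAS against control 5 were higher and 6 lower, no larger a share than over all genes (31.9% and 32%). The leading genes by log2 fold change in RAS were BPGM 2.18, PDK3 1.88 and ENO3 0.76 among those higher and DLD -0.64, PC -0.53 and PDHB -0.47 among those lower. BPGM makes bisphosphoglycerate, PDK3 is a pyruvate dehydrogenase kinase, and DLD and PDHB are parts of the pyruvate dehydrogenase complex. In RAS/shDOT1L against RAS 7 were higher and 5 lower. Ranked by log2 fold change, the leading genes in that comparison were DLD 0.60, PDHB 0.59 and PCK2 0.59 among those higher and PDK3 -0.95, ENO3 -0.71 and PDP1 -0.58 among those lower. In DOT1L OE against control 3 were higher, BPGM at log2 0.85, PFKFB2 at 0.68 and ENO3 at 0.65, and 9 were lower, led by LDHD at -2.76, TIGAR at -1.08 and DLD at -0.80.

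Of 18 further regulators of HIF, 17 were tested in RAS against control, and 6 were higher and 3 lower, beside 31.9% and 32% of all genes. The largest called changes (log2) in RAS were CITED4 2.49, EGLN2 1.23 and ELOB 0.74 among those higher and CITED2 -0.92, USP33 -0.59 and CREBBP -0.24 among those lower. CITED4 and CITED2 compete with HIF for its coactivators, and EGLN2 is the third HIF prolyl hydroxylase. CITED2 averaged 126 ± 3.47 CPM in RAS/shDOT1L, 325 ± 9.17 CPM in RAS, 326 ± 8.22 CPM in DOT1L OE and 613 ± 21.97 CPM in control cells, and was lower in RAS/shDOT1L than in RAS (log2 -1.34 ± 0.055). In RAS/shDOT1L against RAS 4 of 16 were higher, led by CUL2, ELOC and USP33 at log2 0.44, 0.39 and 0.33, and 5 were lower, led by CITED2, then ARNT2 at -1.16 and OS9 at -0.56. In DOT1L OE against control 6 of 17 were higher and 7 lower. By log2 fold change the leading genes in DOT1L OE were EGLN2 1.19, CREBBP 1.02 and EP300 0.49 among those higher and CITED4 -1.08, CITED2 -0.91 and ELOB -0.79 among those lower.

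Of 35 further hypoxia-inducible targets, 31 were tested in RAS against control, and 14 were higher and 9 lower, with a median of log2 0.32, beside 31.9% and 32% of all genes. The leading genes by log2 fold change in RAS were HMOX1 2.75, ANGPTL4 2.48 and DDIT4 2.30 among those higher and TET1 -2.32, LOX -1.94 and RORA -0.70 among those lower. HMOX1 is a heme oxygenase, ANGPTL4 a secreted lipase inhibitor, DDIT4 an inhibitor of mTOR signalling, and LOX crosslinks collagen. In RAS/shDOT1L against RAS 12 of 32 were higher and 10 lower, beside 26.3% and 26.4% of all genes. Ranked by log2 fold change, the leading genes in that comparison were TET1 2.20, CXCR4 1.67 and LOX 1.62 among those higher and FUT11 -1.73, TFRC -1.57 and KDM4B -1.41 among those lower. In DOT1L OE against control 6 of 31 were higher and 16 lower, beside 29.9% of all genes in each direction, with a median of log2 -0.34. The largest called changes (log2) in DOT1L OE were HMOX1 2.62, VLDLR 1.29 and RAB20 1.25 among those higher and AK4 -2.00, ANGPTL4 -1.30 and BHLHE40 -1.19 among those lower. LOX and TET1 thus stood lower in RAS than in control and higher in RAS/shDOT1L than in RAS. TET1, CXCR4 and RAB20, like SLC2A4, SLC2A12, EMB and LDHD, rest on few reads, at 3.66 CPM or less in every library. EGLN2, PFKFB2 and SLC16A7 were also low, at 6.47 CPM or less in every library. The comparisons share libraries and are not independent of each other.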

How the data were processed

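Poly(A)-selected RNA of 12 IMR90 libraries in 4 groups was sequenced on an Illumina instrument. The authors aligned paired-end reads to GRCh38 with STAR (version 2.6.1 in the submitters' processing notes) and deposited raw counts per Ensembl gene, and the strand setting was not given in the sources used here. Groups came from the sample titles. Each of 4 comparisons was fitted on its own 6 libraries with edgeR 4.0.16 (R 4.3.3), with genes kept by filterByExpr (count minimum 10), TMM scaling and the quasi-likelihood F test, and a gene was called at a Benjamini-Hochberg adjusted p under 0.05 over all genes tested. Changes of over 1.5-fold were tested with glmTreat. CPM in the text were scaled by TMM over all 12 libraries, standard errors were the fold change over the root of F, and values per kilobase used the exon union of GENCODE on GRCh38. GC content was removed as an offset over 20 bins. Fits were tested on simulated data. Alternatives were DESeq2 1.42.0 size factors and Wald test, limma-voom (limma 3.58.1), library size only, other filters, 1 fit over the 4 groups, replicate number as a block, the GC offset, and leaving out each library. Libraries of a group differed by 4.33 to 7.87 in chi-square per degree of freedom, so none was a copy. Given per library were HIF1A, EPAS1, ARNT, VHL and, in each comparison, up to 6 called members in each direction with the largest change and no overlap; a few others were added after their values were seen. Of the other lists up to 3 genes in each direction were named. The members and lists were chosen with earlier results of these data known.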

Additional observations from a re-analysis of the deposited data

How the results depend on the processing

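Counts of called members in RAS against control, DOT1L OE against control and RAS/shDOT1L against control stayed within 1.5 times under every alternative run. In RAS/shDOT1L against RAS the count of lower members was 16 as tested and 10 with the GC offset, alone or with the replicate block. Leaving out 1 library gave 29 to 31 higher and 4 to 5 lower members in RAS against control, 14 to 15 and 12 to 16 in RAS/shDOT1L against RAS, 14 to 15 and 12 to 15 in DOT1L OE against control, and 26 to 27 and 3 to 5 in RAS/shDOT1L against control. Same-numbered libraries did not deviate together (correlations of -0.019 to 0.027), so they share only a number. The replicate block left 15 members lower in RAS/shDOT1L against RAS, where ALDOC did not pass (adjusted p = 0.0564 in edgeR, 0.0478 without the block), and changed no other call of a member.

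With the GC offset the sign turned in RAS against control for PFKL (log2 -0.20, and -0.19 with the replicate block), PDK1 (0.17, 0.17), P4HA1 (0.26, 0.26) and ADM (-0.21, -0.21). It turned in RAS/shDOT1L against RAS for GPI (0.0062, 0.0061), PFKL (0.070, 0.070), ALDOA (0.19, 0.19), TPI1 (0.24, 0.24), PGAM1 (0.083, 0.084) and BNIP3L (-0.049, -0.050), and in RAS/shDOT1L against control for PFKL (-0.16, -0.16) and LDHA (0.099, 0.098). With library size only it turned in RAS against control for LDHA (-0.035) and HIF1A (-0.030). In that setting the rises in RAS of ALDOC (0.21), VHL (0.21), KDM3A (0.088), ADM (0.072) and MXI1 (0.29) no longer passed (adjusted p = 0.0528 to 0.528). EGLN1, which did not pass as tested, was then called lower (-0.36, adjusted p = 0.000151). The cause was not tested.

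Isoenzyme shares moved with the length used, and are given for RAS/shDOT1L, RAS, DOT1L OE and control. With the longest transcript, HK2 was 22.0%, 18.8%, 22.2% and 14.5%, PFKP 65.2%, 64.1%, 74.6% and 66.0%, ENO2 3.68%, 8.91%, 3.85% and 3.82%, and LDHB 24.2%, 15.9%, 12.2% and 12.9%. With no length correction, HK2 was 28.4%, 24.6%, 28.7% and 19.3%, PFKP 54.6%, 53.3%, 64.5% and 55.0%, ALDOC 0.560%, 0.669%, 0.877% and 0.795%, ENO2 4.07%, 9.78%, 4.25% and 4.22%, and LDHB 18.0%, 11.5%, 8.67% and 9.19%. EGLN3, CA9, CA12 and ANKRD37 rest on few reads, which limits their precision.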

Other observations

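Glucose that leaves glycolysis enters the pentose phosphate pathway or glycogen, and 23 genes of these routes were listed, of which 21 were tested. In RAS against control 9 were higher and 10 lower, in RAS/shDOT1L against RAS 10 were higher and 4 lower, and in DOT1L OE against control 3 were higher and 14 lower. The shares over all genes were 31.9% higher and 32% lower in RAS against control, 26.3% and 26.4% in RAS/shDOT1L against RAS, and 29.9% in each direction in DOT1L OE against control. RPIA, which isomerises ribose phosphate, averaged 15.97 ± 1.17 CPM in RAS/shDOT1L, 2.33 ± 0.530 CPM in RAS, 6.66 ± 1.54 CPM in DOT1L OE and 1.48 ± 0.389 CPM in control cells (SD, n = 3), and was higher in RAS/shDOT1L than in RAS (log2 2.79 ± 0.23, adjusted p = 3.31e-12). PPP1R3C, which targets a phosphatase to glycogen, averaged 139 ± 5.75 CPM in RAS/shDOT1L, 27.6 ± 1.38 CPM in RAS, 23.3 ± 0.840 CPM in DOT1L OE and 83.3 ± 2.57 CPM in control cells, low in RAS and DOT1L OE. PYGB, the brain form of glycogen phosphorylase, averaged 121 ± 8.47 CPM in RAS/shDOT1L, 417 ± 5.86 CPM in RAS, 212 ± 3.80 CPM in DOT1L OE and 268 ± 8.06 CPM in control cells, and was lower in RAS/shDOT1L than in RAS (log2 -1.77 ± 0.057, adjusted p = 4.35e-23). The adjusted p-values are those of edgeR's quasi-likelihood test over all genes.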
